A study of Ananas comosus with 9 samples.

Results

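Phenylalanine ammonia-lyase (PAL) is the enzyme that opens the phenylpropanoid pathway in plants. The 5 gene models followed here, in the fruit peel of pineapple (Ananas comosus), are Aco013943.1.path1, Aco006987.1.path1, Aco007727.1.path1, Aco007728.1.path1 and Aco020618.1.path1 in the deposited table, written below without the suffix. They are the members of a named set of 5 expressed genes that carry the KEGG ortholog K10775, out of 8 models with that ortholog and 26730 gene models in the deposited table. The libraries were poly(A) RNA of peels taken at 60, 90 and 120 DAF (days after flowering), 3 libraries at each age and 9 in all, in a study of anthocyanins and peel colour during fruit maturation. The labels give no cultivar, treatment or growing condition, so age is the only labelled factor that separates the groups. Anything unlabelled that differed between the ages cannot be told apart from age. Nor do they state whether same-age libraries are separate fruits, plants or repeats of 1 sample, so a p-value here speaks only of the spread among these libraries, which could be technical.

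PAL removes ammonia from L-phenylalanine and leaves trans-cinnamate. Cinnamate 4-hydroxylase and 4-coumarate-CoA ligase then turn cinnamate into 4-coumaroyl-CoA, from which the branches to monolignols (the units of lignin) and to flavonoids, anthocyanins among them, part. Plants usually hold PAL as a small gene family whose members differ in tissue, age and response to wounding or pathogens.

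All 5 genes passed the filter on low values, which asked for at least 1 FPKM (fragments per kilobase, the authors' level scaled to gene length and depth) in at least 3 libraries and left 16791 genes. Aco013943, Aco006987 and Aco007727 reached 1 FPKM in 9 libraries, Aco020618 in 6 and Aco007728 in 4. Of the other 3 models with the ortholog, Aco027752 was tested and lies at the very coordinates of Aco006987. Aco010091 had 706 counts over all libraries, reached 1 FPKM in 2 of them and was not tested. Aco010092, which lies inside Aco010091 on the opposite strand, had 0 counts.

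Positions are those of the deposited table, whose genome build is not given in the sources used here. Aco013943 spans contig 4, 1101238 to 1105001, on the plus strand (3764 bp). Aco006987 spans contig 23, 10258377 to 10261347, on the minus strand (2971 bp), and Aco020618 spans contig 3, 11499867 to 11501979, on the minus strand (2113 bp). Aco007727 and Aco007728 are neighbours on contig 9. Aco007727 runs from 1545997 to 1554282 on the plus strand (8286 bp) and Aco007728 from 1552822 to 1555094 on the minus strand (2273 bp), so that 1461 bp lie in both models. Aco007728 is typed in the table as a coding sequence that is not translated and carries 0 GO terms, whereas the other 4 are typed as protein coding and carry 8 GO terms each, with phenylalanine ammonia-lyase activity among them. The gene models' annotation was the only check of their identity, and exons, introns and UTRs are not given in the table.

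Total counts ran from 35038248 to 52937826 per library. Marker lists give the tissue context. Of 57 models for cuticle and wax synthesis, which the peel surface carries out, 10 were at 0 in every library, and their summed level was 394, 348 and 337 FPKM at 60 DAF, 314, 355 and 835 FPKM at 90 DAF, and 244, 260 and 491 FPKM at 120 DAF. Of 29 models for antenna proteins and ferredoxin, which mark green tissue, 3 were at 0 in every library, and their summed level was 683, 876 and 738 FPKM at 60 DAF, 1313, 3831 and 846 FPKM at 90 DAF, and 687, 652 and 631 FPKM at 120 DAF. No model carried the orthologs chosen for laccase (lignified tissue) or for the cysteine peptidase of bromelain-rich tissue (0 models each).

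Aco020618 was the PAL gene with a called change: it was low at 60 DAF, lower still in the 90 DAF libraries, and rose at 120 DAF. Its level was 2.82, 3.11 and 1.67 FPKM at 60 DAF, 0.922, 0.785 and 0.546 FPKM at 90 DAF, and 34.9, 11.5 and 21.3 FPKM at 120 DAF. Every 120 DAF library lay above every library of the younger ages, which held for 8.73% of all genes tested against 90 DAF and 9.71% against 60 DAF. Every 90 DAF library lay below every 60 DAF library, as in 10.2% of all genes. The counts behind these levels were 253, 252 and 136 in the 60 DAF libraries, 113, 81 and 45 in those of 90 DAF, and 3154, 1174 and 2210 in those of 120 DAF.

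Between 120 and 90 DAF, Aco020618 rose 37.2-fold (log2 fold change 5.22 ± 0.50 SE, 95% interval 4.08 to 6.36, adjusted p = 0.00196, edgeR quasi-likelihood test with Benjamini-Hochberg adjustment). This was the 92nd largest rise of the genes tested, and 38 genes had a lower p. Between 120 and 60 DAF it rose 10.9-fold (3.44 ± 0.46, interval 2.40 to 4.49, edgeR adjusted p = 0.00715). It was called in both comparisons under each of the 19 alternative settings tried, with log2 fold changes of 3.63 to 5.55 against 90 DAF and 2.63 to 3.77 against 60 DAF. Of the 5 PAL genes, 1 was called in each comparison, and it was this gene both times. Among all genes tested, 17.4% were called in either direction for 120 against 90 DAF (8.19% as higher and 9.17% as lower) and 9.47% for 120 against 60 DAF (4.25% as higher and 5.22% as lower). Both comparisons use the same 120 DAF libraries. In whole-peel RNA, more cells that use a gene and more RNA of it per cell cannot be told apart.

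For 90 against 60 DAF, 0 of the 5 PAL genes were called by edgeR, where 0.786% of all genes were. At an unadjusted p under 0.05 the count was 1 of 5, where 16.9% of all genes passed. By DESeq2 it was 1, where 8.56% of all genes were called, and by limma it was 0, where 1.74% of all genes were called on log2(FPKM + 1) and 1.24% on log2(FPKM + 0.1). The gene that passed was Aco020618 both times, with a log2 fold change of -1.78 ± 0.43 (3.43-fold lower at 90 DAF) and an adjusted p of 0.110 by edgeR and 0.00409 by DESeq2. The difference between its later and its earlier change was tested directly: the change from 90 to 120 DAF exceeded the change from 60 to 90 DAF by 7.00 ± 0.88 on the log2 scale (edgeR adjusted p = 0.00659). For this contrast 1 of the 5 PAL genes was called, beside 9.06% of all genes.

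**Figure D1:**
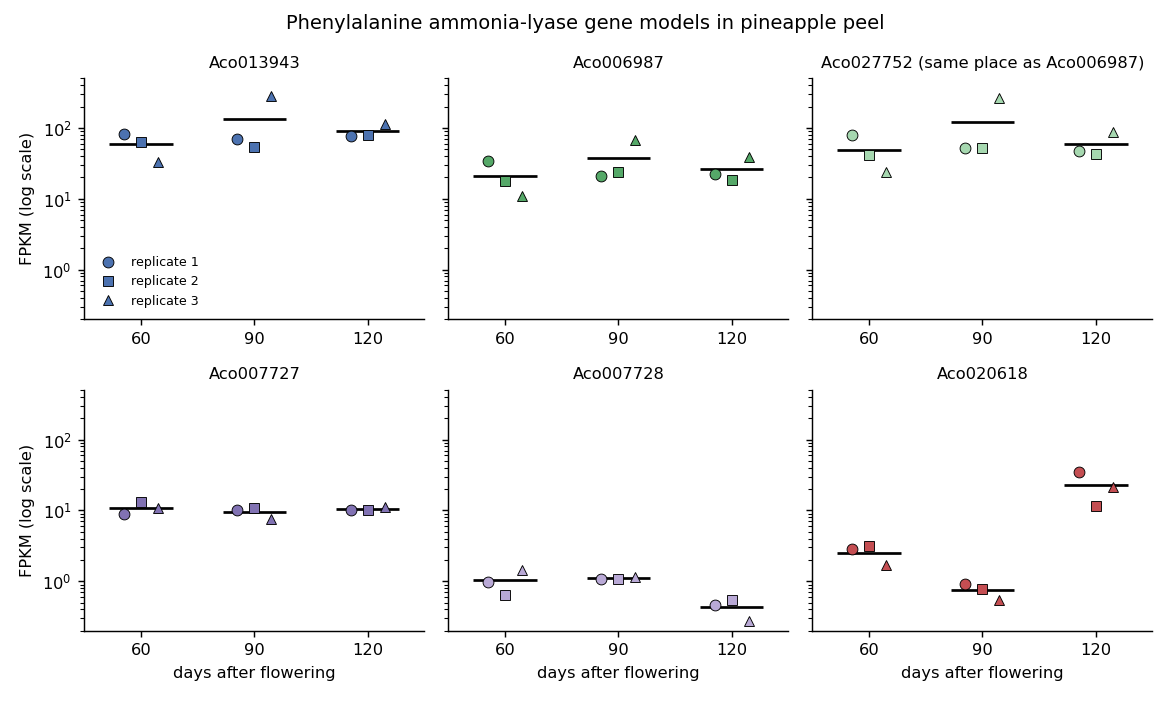
Level of each PAL gene model (FPKM, log scale) against fruit age in days after flowering; each point is a library, its shape the replicate number, and each line the mean of 3 libraries. Aco020618 reaches 11.5 to 34.9 FPKM at 120 DAF and stays between 0.546 and 3.11 FPKM at the younger ages, while Aco007727 lies between 7.65 and 13.2 FPKM in all 9 libraries.

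Aco013943 had the largest level of the 5 listed models in each of the 9 libraries. The locus of Aco006987, taken with the second model at its coordinates, averaged more at 60 and 90 DAF (69.3 and 159 FPKM, described further on). Aco013943 itself stood at 81.4, 62.4 and 33.0 FPKM at 60 DAF, 69.6, 53 and 282 FPKM at 90 DAF, and 75.9, 79.8 and 114 FPKM at 120 DAF. The ages overlapped, and the third replicate of 90 DAF stood far above the other 8 libraries. The means were 58.9 ± 24.4, 135 ± 128 and 89.9 ± 21 FPKM at 60, 90 and 120 DAF (SD, n = 3 each), above the mean level of 83.1, 93.9 and 89.9% of the genes tested. Its log2 fold changes were 1.26 ± 0.68 for 90 against 60 DAF (95% interval -0.31 to 2.82), -0.37 ± 0.67 for 120 against 90 DAF and 0.89 ± 0.68 for 120 against 60 DAF, with edgeR adjusted p of 0.398, 0.748 and 0.446.

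Aco006987 came second, at 34.0, 17.6 and 10.9 FPKM at 60 DAF, 21.2, 23.8 and 68.4 FPKM at 90 DAF, and 22.3, 18.7 and 38.9 FPKM at 120 DAF. The ages overlapped here too, and the same library was the highest. The means were 20.8 ± 11.9, 37.8 ± 26.6 and 26.6 ± 10.7 FPKM (SD, n = 3 each). The log2 fold changes were 0.90 ± 0.63 for 90 against 60 DAF (95% interval -0.54 to 2.33), -0.26 ± 0.62 for 120 against 90 DAF and 0.63 ± 0.62 for 120 against 60 DAF, with edgeR adjusted p of 0.519, 0.811 and 0.566.

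The 90 DAF means of these genes rest on 1 library. In replicate 3 of 90 DAF, Aco013943 stood 4.61-fold and Aco006987 3.05-fold above the mean of the other 2 libraries of that age, a ratio that 2.85% and 5.25% of the genes tested reached or passed. Without that library the log2 fold change of Aco013943 was -0.029 for 90 against 60 DAF and 0.91 for 120 against 90 DAF, and that of Aco006987 was 0.017 and 0.60. None of these was called by edgeR. The same library had the highest summed level of the cuticle and wax models (835 FPKM, against 314 and 355 FPKM in the other 90 DAF libraries), and the part of this in the PAL levels was not tested. The other 3 genes did not stand high there: the ratios were 0.731 for Aco007727, 1.08 for Aco007728 and 0.640 for Aco020618.

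Aco007727 held the steadiest level. It stood at 8.87, 13.2 and 10.9 FPKM at 60 DAF, 10.2, 10.7 and 7.65 FPKM at 90 DAF, and 10.2, 10.1 and 11.3 FPKM at 120 DAF, and the ages overlapped. Its means were 11 ± 2.18, 9.53 ± 1.64 and 10.6 ± 0.688 FPKM (SD, n = 3 each). The log2 fold changes were -0.22 ± 0.18 for 90 against 60 DAF (95% interval -0.63 to 0.19, edgeR adjusted p = 0.591), 0.45 ± 0.18 for 120 against 90 DAF (edgeR adjusted p = 0.122, unadjusted p = 0.0362) and 0.23 ± 0.18 for 120 against 60 DAF (edgeR adjusted p = 0.460). The sign of that last value turned to -0.061 when libraries were scaled by total counts and to -0.039 or -0.041 with limma on log2(FPKM + 1) or log2(FPKM + 0.1). Total count scaling moved the median of all genes to -0.29 in that comparison and to -0.32 for 120 against 90 DAF, against -0.01 and -0.03 in the scaling used throughout.

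Aco007728, the model that overlaps Aco007727, was close to the detection limit, with 20 to 90 counts per library. It stood at 0.992, 0.645 and 1.46 FPKM at 60 DAF, 1.06, 1.09 and 1.17 FPKM at 90 DAF, and 0.462, 0.551 and 0.278 FPKM at 120 DAF. The 120 DAF libraries lay below all others. The model passed the filter of 1 FPKM through its 90 DAF libraries and replicate 3 of 60 DAF, with no 120 DAF library at that level. Such a filter favours a lower place at 120 DAF. The log2 fold changes were 0.10 ± 0.40 for 90 against 60 DAF (edgeR adjusted p = 0.929), -1.09 ± 0.41 for 120 against 90 DAF (edgeR adjusted p = 0.102, unadjusted p = 0.0275) and -0.99 ± 0.41 for 120 against 60 DAF (edgeR adjusted p = 0.165, unadjusted p = 0.0411). Of all genes tested, 27.3% had every 120 DAF library below every 90 DAF library in FPKM, and 33.7% had every 120 DAF library below every 60 DAF library. Its counts were 7.11, 3.07 and 8.49% of those of Aco007727 in the 60 DAF libraries, 6.57, 6.47 and 9.72% in the 90 DAF libraries, and 2.86, 3.45 and 1.55% in the 120 DAF libraries. The strand setting of the counting is not given in the sources used here, so reads of these overlapping models on opposite strands cannot be told apart.

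**Figure D2:**
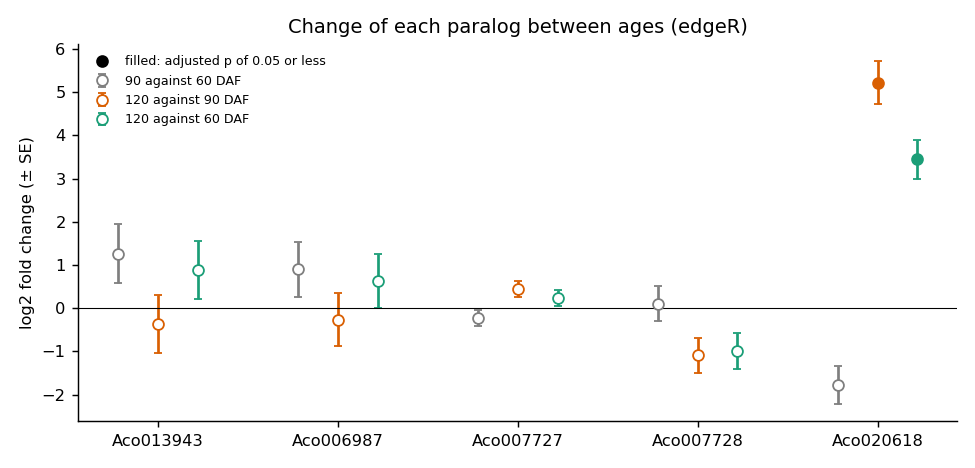
Log2 fold change (edgeR, error bars ± SE) of each PAL gene for 90 against 60, 120 against 90 and 120 against 60 DAF, later age over earlier; filled points have an adjusted p of 0.05 or less. The filled points are those of Aco020618 at 5.22 (120 against 90 DAF) and 3.44 (120 against 60 DAF).

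The order of the genes by level changed with age. At 60 DAF the means ran Aco013943, Aco006987, Aco007727, Aco020618, Aco007728. Aco013943 and Aco006987 overlapped there, as did Aco006987 and Aco007727, while Aco020618 lay above Aco007728 without overlap. At 90 DAF Aco020618 came last, with all 3 libraries below those of Aco007728, and Aco013943 and Aco006987 overlapped across libraries. At 120 DAF Aco020618 ranked behind Aco013943 and Aco006987: it overlapped Aco006987 (18.7 to 38.9 FPKM) and its lowest library, 11.5 FPKM, was just above the highest of Aco007727, 11.3 FPKM. Aco013943 stood clear of the other listed models at 120 DAF. Outside the list, Aco027752 reached 88.4 FPKM in replicate 3 of that age. The Aco006987 locus with both its models ran from 62.1 to 127 FPKM there, so both overlapped Aco013943. Set among the genes tested, the mean of Aco020618 was above that of 13.4% at 60 DAF, 2.30% at 90 DAF and 62.6% at 120 DAF.

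Replicate spread differed between the genes. The coefficient of variation at 60, 90 and 120 DAF was 41.4, 94.7 and 23.4% for Aco013943 and 57.1, 70.3 and 40.3% for Aco006987. It was 19.9, 17.2 and 6.52% for Aco007727, 39.4, 4.92 and 32.4% for Aco007728, and 29.9, 25.3 and 52.2% for Aco020618. The median over all genes tested was 18.3, 30.5 and 20.2%. Aco013943 and Aco006987 were thus above that median at each age. The 3 libraries of Aco020618 at 120 DAF spanned a 3.05-fold range.

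Aco006987 shares its coordinates with another tested model. Aco027752 has the same contig, start, end and strand, and the table gives both models nearly the same counts per FPKM (differing by -0.0569 to 0.00173%), yet different counts. Aco027752 stood at 79.6, 41.8 and 23.9 FPKM at 60 DAF, 52.3, 51.4 and 261 FPKM at 90 DAF, and 47.1, 43.3 and 88.4 FPKM at 120 DAF. It was higher than Aco006987 in all 9 libraries, by 2.34, 2.37 and 2.19 times at 60 DAF, 2.47, 2.16 and 3.82 times at 90 DAF, and 2.11, 2.32 and 2.27 times at 120 DAF. The third replicate of 90 DAF again stood apart from the other 8 libraries.

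Such double entries are common in the table: 1174 models, or 4.39%, share all 4 coordinates with another, at 569 loci. Of 541 loci with 2 models, both had counts at 318, and the counts were equal in all libraries at 1. How reads were divided between such models is not given in the sources used here, so the level of Aco006987 alone is uncertain. With both models summed, the locus stood at 69.3 ± 40.3, 159 ± 147 and 86.2 ± 35.7 FPKM at 60, 90 and 120 DAF (SD, n = 3 each). Its log2 fold changes were 1.26 ± 0.74 for 90 against 60 DAF, -0.66 ± 0.73 for 120 against 90 DAF and 0.59 ± 0.73 for 120 against 60 DAF, with edgeR adjusted p of 0.433, 0.571 and 0.651.

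**Figure D3:**
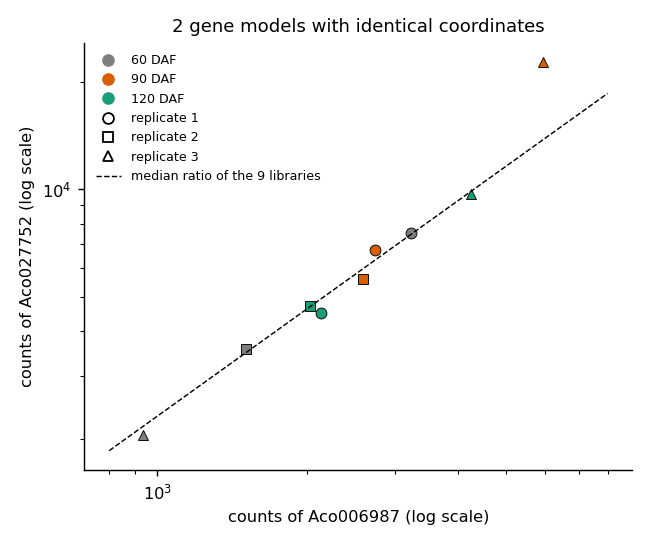
Counts of Aco027752 against counts of Aco006987 in the 9 libraries (both axes log scale); colours are the ages, shapes the replicate numbers, and the dashed line the median ratio. The third replicate of 90 DAF lies above the line, with 22678 counts of Aco027752 beside 5937 of Aco006987.

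Summed over the 5 genes, PAL stood at 128, 97.0 and 57.8 FPKM at 60 DAF, 103, 89.3 and 360 FPKM at 90 DAF, and 144, 121 and 186 FPKM at 120 DAF. The means were 94.3 ± 35.2, 184 ± 153 and 150 ± 33.1 FPKM (SD, n = 3 each), and the ages overlapped. With all 7 models that had counts, the means were 144 ± 63.0, 307 ± 274 and 210 ± 57.3 FPKM. The sum is dominated by Aco013943 and the Aco006987 locus, and its 90 DAF mean carries their high value in 1 library.

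Aco013943 supplied most of the 5-gene sum, with 61.6 ± 4.01% at 60 DAF, 68.4 ± 9.56% at 90 DAF and 60.1 ± 6.79% at 120 DAF (SD, n = 3 each). Aco006987 supplied 21.2 ± 4.66, 22.1 ± 4.01 and 17.3 ± 3.11% at these ages. Aco007727 supplied 13.1 ± 5.94, 8.01 ± 5.20 and 7.19 ± 1.13%, and Aco007728 1.32 ± 1.04, 0.859 ± 0.473 and 0.309 ± 0.154%. The share of Aco020618 was 2.20, 3.20 and 2.90% in the 60 DAF libraries, 0.895, 0.879 and 0.152% in those of 90 DAF, and 24.3, 9.50 and 11.5% in those of 120 DAF. The ages did not overlap in the share of Aco020618, and in replicate 1 of 120 DAF it exceeded that of Aco006987.

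The shares depend on which models are counted. With Aco027752 and Aco010091 added, Aco013943 supplied 41.1, 42.5 and 43.2% at 60, 90 and 120 DAF, and the Aco006987 locus with both its models supplied 46.3 ± 7.17, 51.1 ± 3.45 and 40.1 ± 5.45% (SD, n = 3 each). Aco020618 then supplied 1.86, 0.411 and 11% at these ages.

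**Figure D4:**
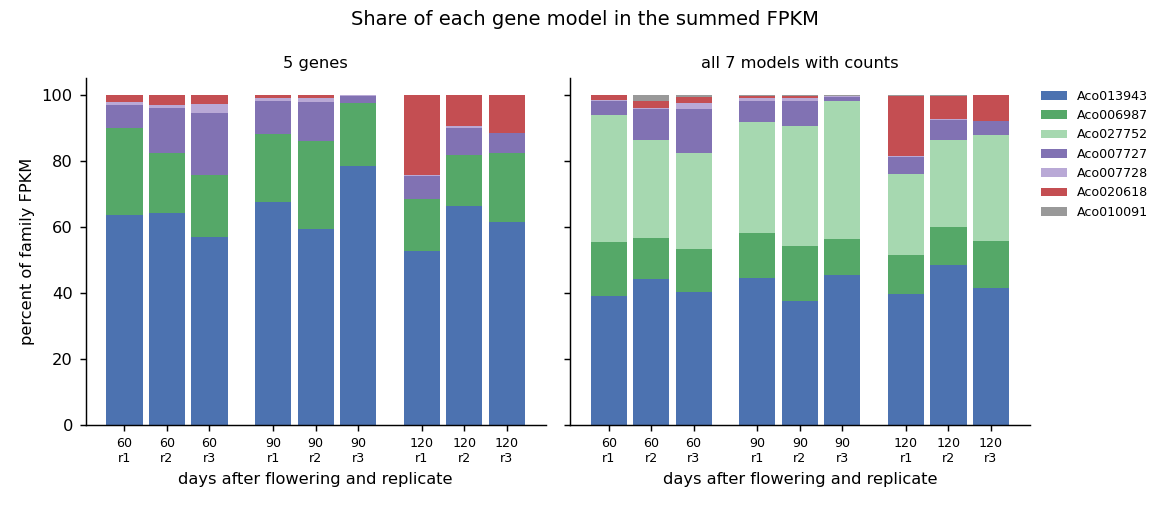
Percent of the summed PAL FPKM from each gene model in each library (stacked bars; ages in days after flowering, r1 to r3 the replicates), for the 5 genes on the left and for all 7 models with counts on the right. Aco020618 takes 9.50 to 24.3% of the 5-gene sum at 120 DAF and at most 3.20% at the younger ages.

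Whether a pair of genes kept the same ratio over age was tested for all 10 pairs, with an exact permutation test of the log2 FPKM ratio over the 1680 assignments of libraries to ages, adjusted over the 10 pairs. All 4 pairs with Aco020618 reached the smallest p these permutations can give, 0.00357 (adjusted p = 0.00893). Their mean log2 ratios moved by 4.46 to 5.84 over the ages. The mean log2 ratio of Aco013943 to Aco020618 was 4.44 at 60 DAF, 6.92 at 90 DAF and 2.11 at 120 DAF. The other 6 pairs were not called, with adjusted p of 0.150 to 0.711. The ratio of Aco013943 to Aco006987 was the least changed, with mean log2 values of 1.55 ± 0.28, 1.64 ± 0.45 and 1.80 ± 0.27 at 60, 90 and 120 DAF (SD, n = 3 each; exact permutation p = 0.711). Aco007727 and Aco007728 had mean log2 ratios of 3.34, 2.98 and 4.36 (exact permutation p = 0.075, adjusted p = 0.150).

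Genes with the most similar pattern over the 9 libraries were sought among the 5509 tested genes that averaged 5 FPKM or more and had an annotated function. The measure was Pearson's r of log2(FPKM + 1), given as a description, since all values share the same libraries. For Aco020618 they were Aco019036, annotated as a sphingosine-1-phosphate lyase (r = 0.985), Aco006228, with a ribosomal protein ortholog (0.973), and Aco015427, with an alcohol dehydrogenase ortholog (0.963). Aco015427 averaged 1.39, 0.869 and 17.5 FPKM at 60, 90 and 120 DAF. For Aco013943 they were Aco007732, annotated as an inositol phosphorylceramide glucuronosyltransferase (0.957), the PAL model Aco027752 (0.956) and Aco013631, an arogenate dehydratase (0.945). Arogenate dehydratase makes phenylalanine, the substrate of PAL. Without replicate 3 of 90 DAF the last r was 0.825, and Aco013631 itself stood at 97.7 FPKM in that library, against 22.6 and 18.9 FPKM in the other 90 DAF libraries.

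For Aco006987 the closest was Aco027752 at the same place (r = 0.983, and 0.992 without replicate 3 of 90 DAF), then a ubiquitin ligase subunit, Aco001264 (0.956), and a serine/threonine protein kinase, Aco001649 (0.945). For Aco007728 r reached 0.962 with Aco000125. For Aco007727 r was at most 0.853, with Aco003326, and dropped to 0.706 without replicate 3 of 90 DAF. Closest in place to Aco006987, apart from Aco027752, was the starch synthase model Aco027751, 739 bp away, at 31.1, 36.8 and 22.2 FPKM at 60, 90 and 120 DAF. On either side of Aco020618, Aco020617 (an ATP transporter by its GO term, 1944 bp away) averaged 10.2, 10.5 and 16.6 FPKM, and Aco020619 (1935 bp away) averaged 0.691, 1.62 and 0.760 FPKM.

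The steps before and after PAL were taken as lists by KEGG ortholog. Phenylalanine supply, the shikimate route to phenylalanine, had 32 of 37 models tested. For 120 against 90 DAF 0 rose and 4 of 32 fell, with a median log2 fold change of -0.29 beside -0.03 over all genes, 9.17% of which fell. The number that fell was 9 under total count scaling (median -0.58, beside -0.32 over all genes) and 8 by DESeq2 and by limma with a pseudocount of 1 or 0.1 (limma medians -0.54 and -0.56, beside -0.26 and -0.28 over all genes). Of all genes, 15.3% fell under total count scaling, 15.1% by DESeq2, and 14.7 and 15% by limma. For 120 against 60 DAF 0 rose and 3 of 32 fell, where 5.22% of all genes fell. The median was 0.14 beside -0.01 over all genes, and -0.14 beside -0.29 under total count scaling. DAHP synthase opens the route, and 1 of its 4 tested models was called. The most abundant of them, Aco009558, was not called: it averaged 126 FPKM at 120 DAF, against 243 FPKM at 90 DAF (-0.70 ± 0.43, edgeR adjusted p = 0.293) and 84.7 FPKM at 60 DAF (0.84 ± 0.43, edgeR adjusted p = 0.257). The model that fell, Aco001233, averaged 13.8 FPKM at 120 DAF, against 99.2 FPKM at 90 DAF (log2 fold change -2.58 ± 0.36, edgeR adjusted p = 0.00497). The prephenate aminotransferase Aco011216 fell as well (-0.74 ± 0.17, edgeR adjusted p = 0.0211), a call that was lost without replicate 1 or replicate 3 of 120 DAF and with only the compared ages in the fit (adjusted p up to 0.0812). The chorismate mutase Aco008520 (-2.04 ± 0.58, edgeR adjusted p = 0.0469) was called under 8 of 19 alternatives, with adjusted p up to 0.133. Leaving out libraries moved the number that fell between 1 (without replicate 1 or without replicate 3 of 120 DAF) and 5 (without replicate 3 of 90 DAF). For 120 against 60 DAF it was 0 without replicate 1 or 3 of 120 DAF or replicate 2 of 60 DAF, 1 without replicate 1 or 3 of 60 DAF, and 2 to 4 without any other library.

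From cinnamate to the CoA esters, 8 of 13 models were tested. For 120 against 90 DAF 2 rose and 1 fell (median 0.29), where 8.19% of all genes rose and 9.17% fell. Only 1 rose without replicate 1 or 3 of 120 DAF or replicate 2 of 90 DAF. For 120 against 60 DAF 2 rose and 0 fell (median 0.85), where 4.25% of all genes rose and 5.22% fell. Without replicate 1, 2 or 3 of 120 DAF, or replicate 2 or 3 of 60 DAF, 1 rose in that comparison. Cinnamate 4-hydroxylase, the enzyme next after PAL, was not called. Aco007124 averaged 74.5 ± 34.2 FPKM at 120 DAF, 72.3 ± 57.0 FPKM at 90 DAF and 38.0 ± 16.9 FPKM at 60 DAF (SD, n = 3 each). Its log2 fold change was 0.27 ± 0.64 for 120 against 90 DAF (edgeR adjusted p = 0.813). For 120 against 60 DAF it was 1.26 ± 0.65 (edgeR adjusted p = 0.259). The most abundant 4-coumarate-CoA ligase, Aco019975, averaged 116 FPKM at 120 DAF and was called in both comparisons. It averaged 36.9 FPKM at 90 DAF (1.96 ± 0.42, edgeR adjusted p = 0.0181) and 40.8 FPKM at 60 DAF (1.78 ± 0.41, edgeR adjusted p = 0.0370). Its call for 120 against 90 DAF was lost without replicate 1 or 3 of 120 DAF or replicate 2 of 90 DAF. The ligase Aco019974 rose to 59.8 FPKM at 120 DAF, against 18 FPKM at 90 DAF (2.03 ± 0.34, edgeR adjusted p = 0.00866). Another ligase, Aco011626, fell (-2.92 ± 0.51, edgeR adjusted p = 0.00966).

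In the monolignol branch 44 of 81 models were tested, and for 120 against 90 DAF 10 of 44 rose and 7 fell (median 0.09), where 8.19% of all genes rose and 9.17% fell. Under total count scaling 6 rose and 8 fell, with a median of -0.21. Of all genes, 3.87% rose and 15.3% fell under that scaling, with a median of -0.32. Without replicate 1 of 120 DAF 4 rose and 2 fell, and without replicate 3 of that age 7 rose and 2 fell. The 2915 of all genes called in either direction became 1094 and 1419 in those fits. For 120 against 60 DAF 6 of 44 rose and 3 fell (median 0.55), where 4.25% of all genes rose and 5.22% fell. Under total count scaling 3 rose and 4 fell in that comparison, where 2.27% of all genes rose and 8.97% fell. Leaving out 1 library moved the edgeR counts of that comparison between 0 and 9 that rose and between 0 and 4 that fell. The fewest rose without replicate 2 of 60 DAF, where the 1590 of all genes called in either direction became 392. Cinnamyl-alcohol dehydrogenase had 6 tested models: 4 rose and 1 fell for 120 against 90 DAF, and 2 rose and 0 fell for 120 against 60 DAF. Cinnamoyl-CoA reductase had 9: 3 rose and 1 fell for 120 against 90 DAF, and 3 rose and 0 fell for 120 against 60 DAF. Of 16 tested hydroxycinnamoyltransferase models, which carry the acyl group onto shikimate, 2 rose and 4 fell for 120 against 90 DAF, and 1 rose and 3 fell for 120 against 60 DAF. Aco012071 rose to 283 FPKM at 120 DAF, against 88.4 FPKM at 90 DAF (2.0 ± 0.43, edgeR adjusted p = 0.0185), a call lost without replicate 1 of 120 DAF and with only the compared ages (adjusted p up to 0.0623). Aco002136 fell to 0.282 FPKM at 120 DAF, against 40.2 FPKM at 90 DAF (-6.84 ± 0.82, edgeR adjusted p = 0.00322). Ferulate 5-hydroxylase, which leads to sinapyl alcohol, rose likewise: Aco007577 averaged 60.0 FPKM at 120 DAF, against 11.6 FPKM at 90 DAF (2.69 ± 0.54, edgeR adjusted p = 0.0148). At 60 DAF it averaged 36.3 ± 22.5 FPKM (SD, n = 3), and the change between 120 and 60 DAF was not called (1.0 ± 0.51, edgeR adjusted p = 0.252), though it was with a replicate block (1.06, adjusted p = 0.0404).

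In the flavonoid branch 32 of 45 models were tested, and for 120 against 90 DAF 0 rose and 13 of 32 fell (median -0.82), where 9.17% of all genes fell. Among the 13 were 2 of the 2 tested chalcone synthase models, 3 of 8 chalcone isomerase models and 2 of 2 anthocyanidin 3-O-glucosyltransferase models. For 120 against 60 DAF 0 rose and 8 of 32 fell (median -0.41), where 5.22% of all genes fell. Of these models 4 fell without replicate 2 of 60 DAF and 5 without replicate 1 of 120 DAF. The 1590 of all genes called in either direction became 392 and 491 there. Leaving out 1 library at a time gave 7 to 12 that fell between 120 and 90 DAF, with 7 without replicate 1 of 120 DAF or without replicate 2 of 90 DAF, and 8 without replicate 3 of 120 DAF. No model carried the ortholog chosen for anthocyanidin synthase (0 models). At 120 DAF, then, flavonoid models fell in the same libraries in which the PAL gene Aco020618 rose, and the summed green-tissue level was lower there too (631 to 687 FPKM, against 846 to 3831 FPKM at 90 DAF). At 60 DAF that level was 683 to 876 FPKM and overlapped 120 DAF. Of 22 tested green-tissue models 0 rose and 14 fell for 120 against 90 DAF (median -4.13), where 9.17% of all genes fell. For 120 against 60 DAF 0 rose and 6 fell (median -1.32), where 5.22% of all genes fell. That 6 became 1 without replicate 1 of 120 DAF and 10 without replicate 2 of 90 DAF. The 1590 of all genes called in either direction became 491 and 2452 in those fits. The part of tissue make-up in the flavonoid fall or the rise of Aco020618 was not tested.

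For 90 against 60 DAF edgeR called 0 models in each of the 4 lists. At an unadjusted p under 0.05, where 8.68% of all genes were higher and 8.26% lower, 7 phenylalanine supply models were higher and 0 lower, 1 higher and 0 lower from cinnamate to the CoA esters, 7 higher and 5 lower in the monolignol branch, and 5 higher and 1 lower in the flavonoid branch. DESeq2, which called 4.21% of all genes as higher and 4.35% as lower, called 3 and 0, 1 and 0, 5 and 3, and 2 and 1 in the same order, and limma on log2(FPKM + 1) called 1 higher in the first and 1 higher in the monolignol list.

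**Figure D5:**
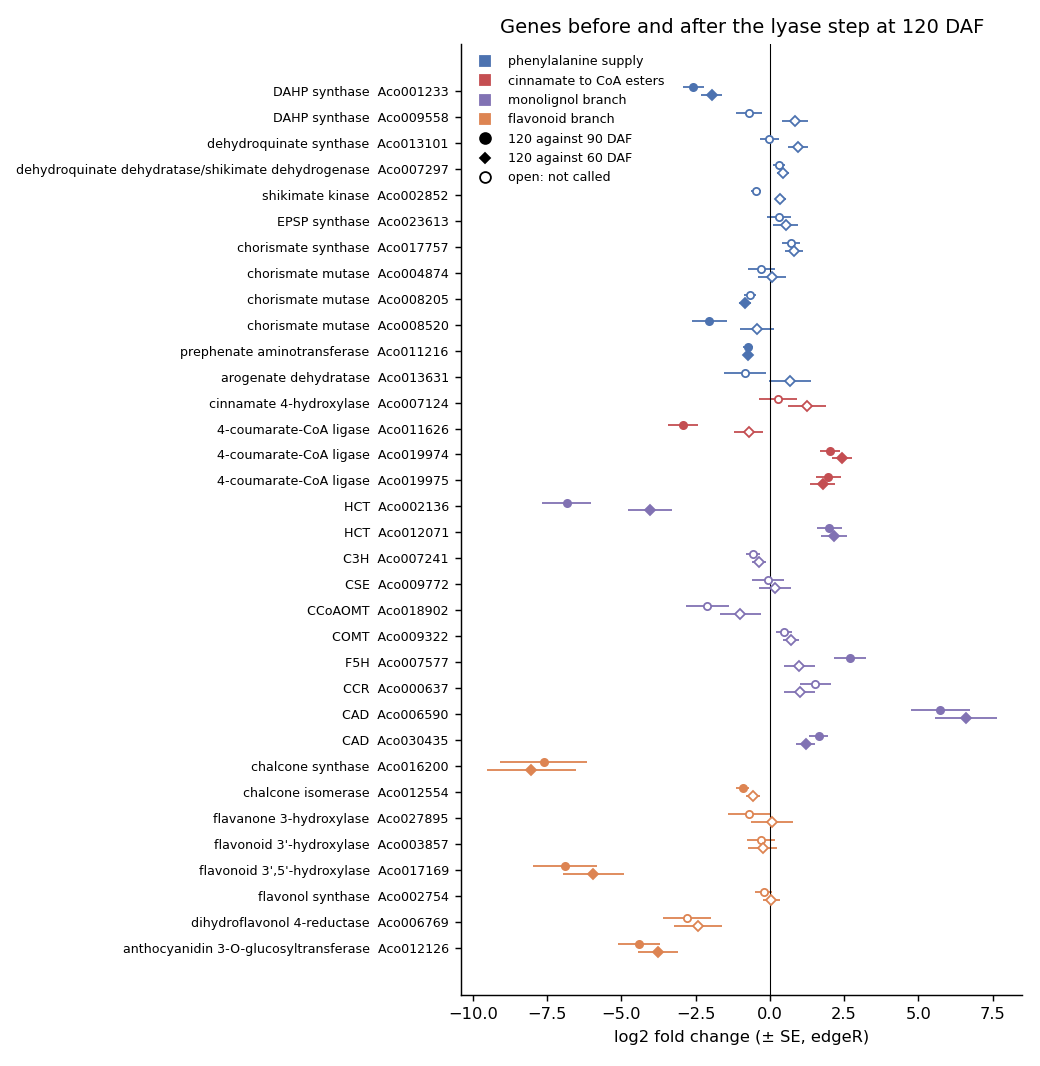
Log2 fold change (edgeR, ± SE) of named genes of the steps before and after PAL, for 120 against 90 DAF (circles) and 120 against 60 DAF (diamonds); filled symbols have an adjusted p of 0.05 or less, and colours mark the 4 lists. Filled symbols of the flavonoid and phenylalanine supply lists lie left of 0, and those of 4-coumarate-CoA ligase and hydroxycinnamoyltransferase (HCT) lie on both sides; the flavanone 3-hydroxylase model Aco018609, with no counts at 120 DAF, is not drawn.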

How the data were processed

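RNA-seq of pineapple peel was deposited as 1 table for 9 libraries. Per the file headers, it holds whole-number read counts per gene model and the authors' FPKM values; all 65846 values at count 0 are written as 0.0001 FPKM. Bowtie 0.12.2, HISAT2 2.0 and StringTie 1.3.0 are named per the submitters' processing notes, with no role stated. The genome build, annotation and strandedness of the counting were not given in the sources used here. Counting could split reads between near-identical copies.

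Counts were tested as deposited with edgeR 4.0.16 (quasi-likelihood, TMM scaling factors 0.849 to 1.148, all 9 libraries in 1 fit, 6 residual degrees of freedom), in R 4.3.3, with Benjamini-Hochberg adjustment over 16791 genes and a threshold of 0.05. DESeq2 1.42.0 and limma 3.58.1 on log2(FPKM + 1) or log2(FPKM + 0.1) were alternatives, beside other scalings, filters, a replicate block, only the compared ages, each library left out in turn and, chosen after seeing the data, models at identical coordinates summed and all K10775 models counted. An SE is the log2 fold change divided by the square root of F. FPKM values carry no TMM scaling, so their ratios differ from the folds. The edgeR and permutation steps were tested on simulated data. Pair ratios used a pseudocount of 0.1. Python 3.11.15, pandas 2.3.3, numpy 2.4.6 and matplotlib 3.10.9 were used for the rest.

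The 5 genes and the lists were chosen with earlier results of these data known. By the rule for named genes, the text draws on the 5 genes, the gene of highest mean FPKM of each enzyme step, up to 2 called members per list and comparison with a mean of at least 1 FPKM, the 3 most similar genes of each PAL gene and its nearest neighbours; those printed were picked after their values were seen. No sequence is shown. Intervals and SEs cover the spread of these libraries only.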

Additional observations from a re-analysis of the deposited data

Results flagged for a closer look

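The changes of Aco020618 over the 2 intervals of age differed by a direct test: the log2 change from 90 to 120 DAF minus the log2 change from 60 to 90 DAF was 7.00 ± 0.88 (edgeR adjusted p = 0.00659), and it was called under all 18 alternatives that could give it. Its log2 change was 5.22 for 120 against 90 DAF and -1.78 for 90 against 60 DAF, and the second of these was not called by edgeR. Both changes use the same 90 DAF libraries, so a low value at that age enters both.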

How the results depend on the processing

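With 3 libraries an age and low counts, the 95% intervals of Aco007728 were wide. For 90 against 60 DAF the interval was -0.82 to 1.02. It was -2.03 to -0.15 for 120 against 90 DAF and -1.93 to -0.05 for 120 against 60 DAF. These intervals are not adjusted for the number of genes, and none of the changes was called. Changes within an interval could not be told apart. Aco019975, whose call for 120 against 90 DAF was lost in some fits, was left out of the next count. Of the fold changes of the PAL and other printed genes, 586 alternative values kept direction and call, 16 lost the call and 2 gained it. A further 13 turned in sign, and none of those that turned was called. With 1 library left out, the log2 fold change of Aco013943 ran from -0.029 to 1.66 for 90 against 60 DAF, -0.77 to 0.91 for 120 against 90 DAF and -2.43 to 0.94 for the difference between these changes, and that of Aco006987 from 0.017 to 1.48, -0.67 to 0.60 and -1.80 to 0.59 for the same contrasts. For 120 against 90 DAF it ran from -1.30 to 0.46 for Aco013631. Where a sign turned among these, it did so without replicate 3 of 90 DAF. Aco007124 ran from -0.11 (without replicate 2 of 90 DAF) to 1.26 for 120 against 90 DAF and was -0.087 without replicate 3 of 120 DAF. Aco007728 ran from -0.15 (without replicate 2 of 60 DAF) to 0.41 for 90 against 60 DAF and was -0.011 without replicate 3 of 90 DAF. Aco007727 turned to -0.061 for 120 against 60 DAF with total count scaling and to -0.039 and -0.041 with limma at pseudocounts of 1 and 0.1. The cause was not tested.

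The PAL count changed in 1 case, to 1 gene for 90 against 60 DAF by DESeq2. Over all genes, the 132 called for 90 against 60 DAF became 85 with total count scaling, 76 with no filter, 1437 by DESeq2, 293 and 209 by limma at pseudocounts of 1 and 0.1, 54 with only the compared ages, and 0 to 276 with 1 library left out (0 without replicate 2 or 3 of 60 DAF, 276 without replicate 2 of 90 DAF). The 2915 for 120 against 90 DAF became 4658 by DESeq2, 1215 with only the compared ages and 1094 to 3164 with 1 library left out (1094 without replicate 1 of 120 DAF). The 1590 for 120 against 60 DAF became 3393, 2585 and 392 to 2452 (392 without replicate 2 of 60 DAF), and the 1521 for the difference between changes became 3357 by DESeq2 and 549 to 1493 with 1 library left out (549 without replicate 3 of 60 DAF).

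Replicate numbers are shared by the ages. The deviations of same-numbered libraries from their age means had correlations of -0.34 to 0.39, without a common sign. The highest was that of replicate 3 at 90 and 120 DAF. The labels do not say whether a shared number marks a pairing. With a replicate block, 10 genes were called for 90 against 60 DAF, 995 for 120 against 60 DAF and 666 for the difference between changes, and 0 pair ratios were called instead of 4, because 216 assignments allow no p under 0.0278. The PAL counts did not move with the block.

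With all K10775 models counted, shares at 60, 90 and 120 DAF were 41.1, 42.5 and 43.2% for Aco013943 and 14, 13.8 and 12.4% for Aco006987. The share of Aco020618 was 1.86% at 60 DAF, that of Aco007727 5.20% at 120 DAF, and the sum 144, 307 and 210 FPKM. The 5 genes held a mean of 0.0208, 0.0402 and 0.0331% of library counts at these ages (n = 3 each). The 90 DAF mean rests on replicate 3: the libraries were at 0.0226, 0.0199 and 0.0780%. At 60 DAF they were at 0.0282, 0.0214 and 0.0129%, and at 120 DAF at 0.0319, 0.0263 and 0.0411%.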
